A study of Mus musculus with 6 samples.

Results

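Type I interferon-stimulated genes were described here through 32 members taken by gene symbol from the 32285 genes of a single-cell matrix. No rule on measured values picked them, but the list was chosen with earlier results of these data known. Each of the 32 symbols matched 1 gene, and each had at least 50 counts over all cells. The cells came from MOC-2 tumors grown under the skin of male mice. MOC-2 is a line of mouse oral squamous carcinoma, used as a model of head and neck cancer. The labels list 3 tumors given vehicle, which was DMSO by its label, and 3 given an experimental agent. All 6 were taken 24 h after a single injection into the tumor. The protocol names R848, 5’ppp-dsRNA/Lyovec, 2'3'-c-di-AM(PS)2, galunisertib, epcadostat, clodronate, L-NMMA, Nw-Hydroxy-nor-L-arginine, 2-C1-IB-MECA, 4-1BB ligand and Copper(II) diethyldithiocarbamate, but the labels do not say which of them the treated tumors received. Dead cells were removed by dye and sorting, and the tumors were then marked with multiplexing oligos and pooled equally.

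No label ties the cells to a tumor. Barcodes end in a number from 1 to 6, and cells with the same ending form a barcode set. The sets belong to no group here, so vehicle and treated tumors were not compared, and the pool is described as 1 sample without replicates or tests. Levels are summed unique molecular identifiers (UMIs) scaled to the total UMIs of the same cells, in the usual unit CPM, with exact 95% Poisson intervals that cover counting error only. In all 14560 cells were kept, from 883 to 3985 in a set, and no barcode sequence was shared between sets. The matrix held 141434361 UMIs, with 7354560 to 38798439 in a set, and the set's main tag held 89.6% to 96.8% of its tag counts.

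Type I interferons are secreted when a cell senses foreign or misplaced nucleic acid. They bind the IFNAR1 and IFNAR2 receptor pair, which acts through JAK1 and TYK2 to switch on the factor ISGF3, of which STAT2 and IRF9 are parts. ISGF3 binds the interferon-stimulated response element, a short repeated sequence in front of genes whose products block viral entry, degrade or mask viral RNA, and raise sensing and antigen presentation. In tumors the same genes are known as a readout of local interferon in cancer cells and in the leukocytes around them.

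The promoter stretches below carry the sequence letters that the family shares. Among the members, 25 had a RefSeq promoter window, from 250 bases before to 50 after the start site on build GRCm38.p6. A simple form of the response element, GAAA followed by GAAA after any 2 bases and searched on both strands, was present in 14 of the 25, against 3.99% of 27025 genes with a window. The stretches belong to members on which the results turn, and capitals mark the match nearest to the start site, to that form or its reverse complement, with any further match left in lower case. Each is written along the gene's own strand, which is minus for Isg15 (chr4:156200855-156200904), Rsad2 (chr12:26456543-26456592), Bst2 (chr8:71537567-71537616) and Oas3 (chr5:120777705-120777754). It is plus for Ifit1 (chr19:34640784-34640833), Ifit3 (chr19:34583387-34583436) and Ifit3b (chr19:34607783-34607832).
Isg15: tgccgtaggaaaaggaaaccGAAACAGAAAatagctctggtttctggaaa
Ifit1: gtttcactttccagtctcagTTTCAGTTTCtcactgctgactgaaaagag
Ifit3: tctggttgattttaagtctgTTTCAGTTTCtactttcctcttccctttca
Ifit3b: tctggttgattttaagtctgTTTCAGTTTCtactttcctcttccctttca
Rsad2: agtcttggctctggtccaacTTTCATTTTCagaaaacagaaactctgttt
Bst2: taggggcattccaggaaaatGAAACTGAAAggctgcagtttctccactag
Oas3: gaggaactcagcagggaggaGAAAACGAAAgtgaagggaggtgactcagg

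The Ifit3 and Ifit3b stretches are identical, and the proteins of this pair are near-identical too, so their counts could be split between them by the mapping and are uncertain. The same holds for Oas1a and Oas1g. The match starts 66 bases before the start site in Isg15, 120 in Rsad2 and 154 in Ifit3b. No match lay in the windows of Isg20, Ifit2, Oasl1, Oasl2, Irf7, Irf9, Ifi44, Cmpk2, Xaf1, Herc6 and Lgals3bp. The 5 Ifit members lie in 1 cluster on chromosome 19, from Ifit2 at 34550694 to the end of Ifit1 at 34650009, and Rsad2 and Cmpk2 are neighbours on chromosome 12 (GENCODE release M21, mm10).

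Cells were assigned to lineages by marker genes that hold no member of the family. Carcinoma cells (7693) were gated by Xist, since the line carries it and the male host does not, with no count of 4 Y-linked genes. The host gates held 1642 macrophages or monocytes, 447 neutrophils, 432 T cells, 294 NK cells, 191 fibroblasts, 187 osteoclasts, 94 mast cells or basophils, 77 dendritic cells, 63 pericytes or smooth muscle cells and 58 endothelial cells. A further 18 B or plasma cells and 10 plasmacytoid dendritic cells were too few to rank, 309 cells met gates of different lineages and 3045 met none. Every host lineage had at least 2 times the level of its own markers over other cells, for all markers except 1 of 10 in NK cells, and no marker was at 0. The gates used these same markers, so this describes the gates and is no separate check of the assignment. Median depth ran from 840 UMIs in neutrophils to 11388 in carcinoma cells.

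Neutrophils held the family at the highest level, and macrophages or monocytes came second. Ifitm3, a membrane protein that blocks viral entry, and Bst2, the virion tether tetherin, made up 44.6% and 18.3% of all UMIs of the family. The sum was therefore also taken over the other 30 members. This sum was 12760 CPM in neutrophils (95% interval 12475 to 13051), 4662 in macrophages or monocytes (4598 to 4728) and 1429 in carcinoma cells (1421 to 1436). The neutrophil level was thus 2.74 times that of macrophages and 8.93 times that of carcinoma cells. Dendritic cells (2381), endothelial cells (2149), osteoclasts (1825) and T cells (1801) stood between. Ifi27l2a alone gave 50.4% of the T-cell sum, and without it, a setting added after seeing the data, T cells were at 893 CPM (841 to 948), below the carcinoma cells at 1407. Pericytes (1371), NK cells (1265), fibroblasts (1241) and mast cells or basophils (884) were below the carcinoma cells in the pool, but not in every barcode set. Among sets with at least 20 such cells, fibroblasts were above carcinoma cells in sets 2 and 3 (1372 and 955 against 699 and 787 CPM). They were below in sets 1, 4 and 5. NK cells were above in sets 1 and 3 (1251 and 844 against 684 and 787 CPM) and below in sets 2, 4, 5 and 6. The intervals of endothelial and dendritic cells overlapped, as did those of osteoclasts and T cells, of carcinoma cells and pericytes, and of pericytes, NK cells and fibroblasts. With all 32 members the order changed below the first pair, since Ifitm3 and Bst2 gave 66.3% of the family's UMIs in carcinoma cells and 23.4% in neutrophils. The 32-member level was 16660 CPM in neutrophils, 7617 in macrophages, 5641 in endothelial cells and 4245 in carcinoma cells.

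**Figure D1:**
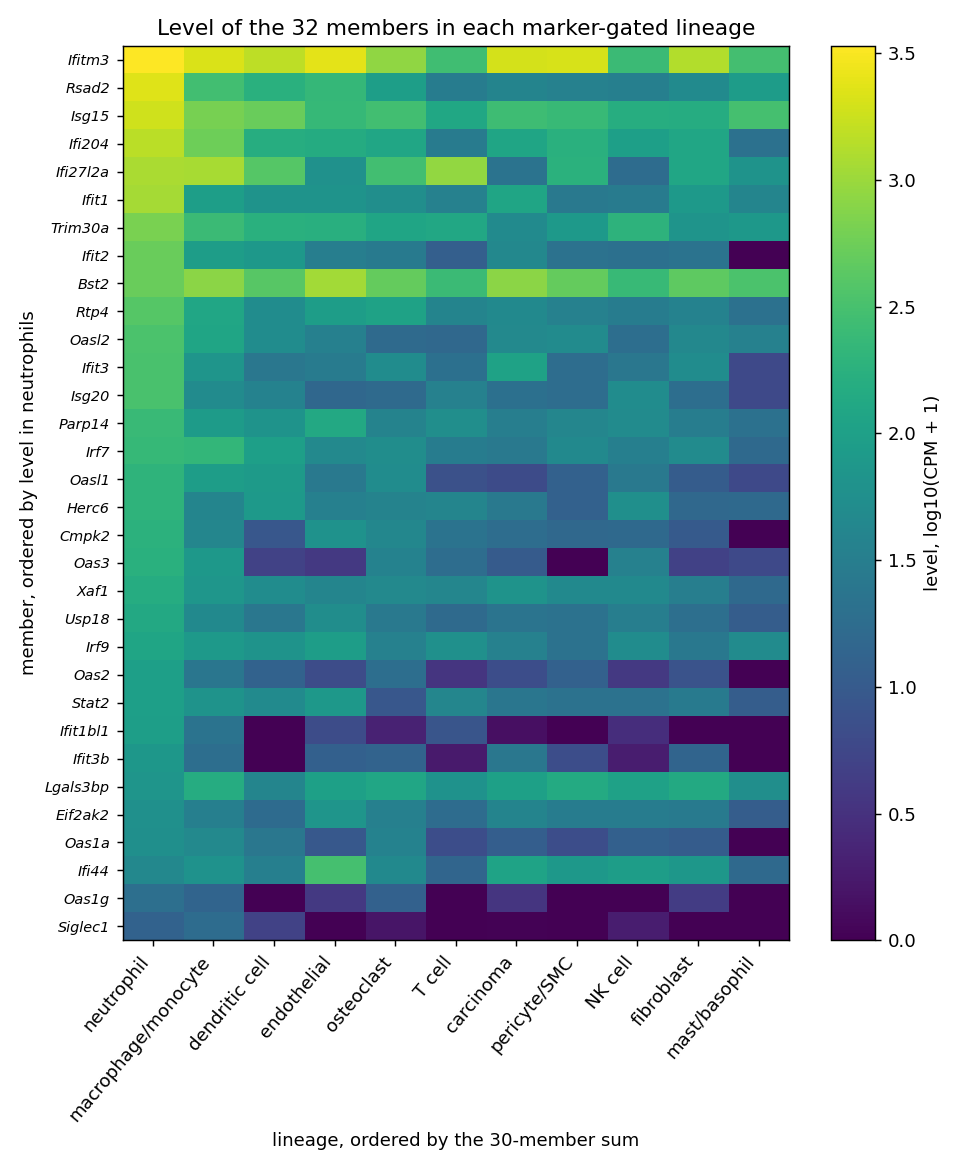
Level of each of the 32 members (rows, ordered by the neutrophil level) in 11 lineages (columns, ordered by the 30-member sum), as log10 of CPM plus 1. Brighter is higher: the neutrophil column is the brightest in 27 of the 32 rows, while Ifitm3 and Bst2 are high in nearly every column.

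The order of the leading pair was the same in each barcode set. The neutrophil sum over 30 members was 3502, 6700, 5138, 8708, 18486 and 18491 CPM in sets 1 to 6. The macrophage or monocyte sum was 2080, 2860, 3814, 5335, 7178 and 6026 CPM in the same order. Carcinoma cells held 684, 699, 787, 1462, 2610 and 2008 CPM. Neutrophils ranked first and macrophages second in all 6 sets, with neutrophils 1.35 to 3.07 times the macrophages, while the carcinoma cells moved from last of 6 lineages in set 3 to rank 3 of 7 in set 5. These sums alone do not separate a larger share of responding cells from more RNA per responding cell. The share was therefore read from single cells, each thinned by random draws to 500 UMIs. At least 5 UMIs of the 30 members were held by 55.1% of 401 neutrophils, 18.1% of 1623 macrophages or monocytes and 3.42% of 7691 carcinoma cells. Cells at this level were thus most frequent among neutrophils of these 3 lineages. The part of RNA per responding cell in the sums was not tested.

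**Figure D2:**
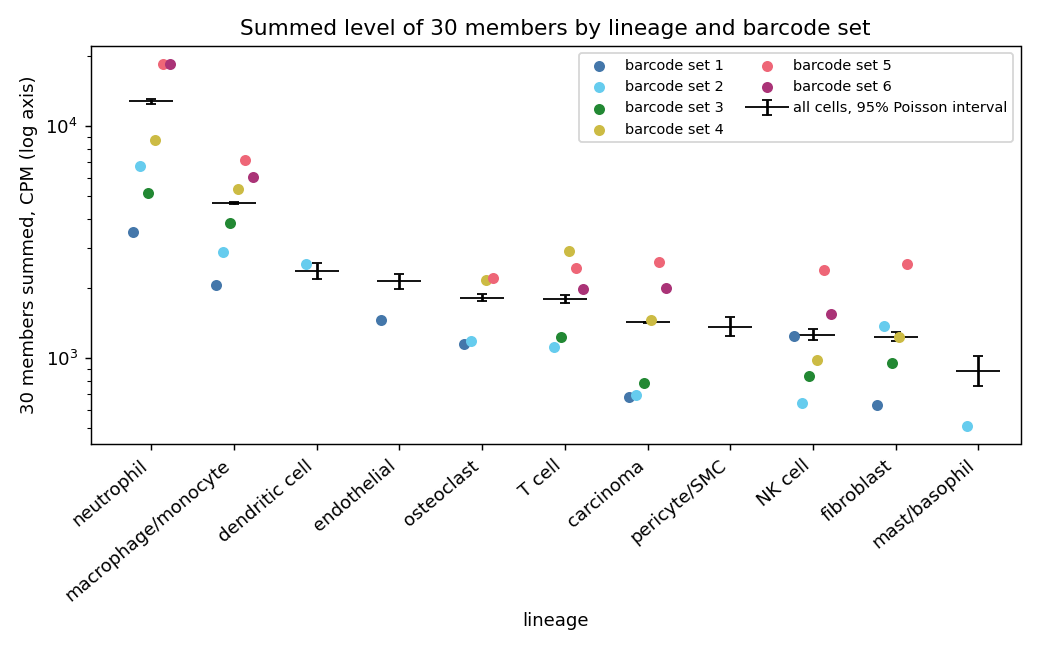
Summed level of 30 members (without Ifitm3 and Bst2) per lineage in CPM on a log axis. Dashes are the pooled values with 95% Poisson intervals and points are barcode sets with at least 20 cells of the lineage; the neutrophil points run from 3502 to 18491 CPM and the carcinoma points from 684 to 2610.

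In neutrophils 27 of the 32 members reached 2 times their level in all other cells, where 12.6% of all 14500 genes with at least 50 counts did, and the median fold was 7.10 over the members against 0.89 over all genes. Ifit1bl1, a paralog of Ifit1, had the highest fold. Its level was 0, 0, 0, 90.2, 146 and 120 CPM in sets 1 to 6, and 94.0 CPM (71.0 to 122) in the pool, 55.5 times that of other cells, from 56 counts. Sets 1 to 3 held no count of it in neutrophils, and these 3 sets held the fewest neutrophils. Rsad2, which encodes the antiviral enzyme viperin, was at 555, 1443, 635, 844, 4103 and 3401 CPM by set. Its pooled level was 2270 CPM (2151 to 2395), 42.2 times that of other cells, and no neutrophil set fell below 555 CPM. Oasl1, a member of the oligoadenylate synthase-like group that in mice limits IRF7 production, was at 38.3, 68.7, 151, 106, 325 and 282 CPM. Its pooled level was 198 CPM (164 to 237), a fold of 19.6.

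The other members above 2-fold in neutrophils had several roles. Isg15, the ubiquitin-like protein attached to other proteins in the response, was at 631, 996, 1088, 1311, 2810 and 2448 CPM by set, with a fold of 6.68. Its ligase Herc6 had a fold of 7.49, and Usp18, which removes ISG15 and damps the receptor, one of 6.01. The oligoadenylate synthases, which activate RNase L, and their relatives had folds of 14.5 (Oas2), 14.0 (Oas3), 7.20 (Oasl2), 6.27 (Oas1g) and 4.67 (Oas1a). Of the transcription factors, Irf7 had a fold of 6.54, Stat2 of 3.89 and Irf9 of 3.23. Ifi27l2a (13.8), Trim30a (10.9), Ifi204 (10.5), Cmpk2 (9.83), Rtp4 (7.91) and Parp14 (7.01), an ADP-ribosyltransferase, had higher folds than these factors, while Ifit3 (3.27), Ifit3b (3.14) and the pro-apoptotic Xaf1 (2.38) were lower. Siglec1 had a fold of 16.4 on 7 counts, all of them in the 60 neutrophils with 1000 or more genes.

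Members that did not reach 2-fold in neutrophils were Ifitm3 (1.75), Eif2ak2 (1.61), Bst2 (0.66), Lgals3bp (0.66) and Ifi44 (0.42). Eif2ak2 encodes the RNA-dependent kinase PKR, and Lgals3bp a secreted glycoprotein. Ifi44 was the 1 member at or below 0.5-fold, a call made for 31% of all genes in neutrophils. Bst2 was at 1072, 172, 363, 557, 570 and 346 CPM by set, highest in set 1. These values rest on few cells, since the 60 neutrophils with 1000 or more genes gave 244 of its 313 counts, at 943 CPM, against 179 CPM in the 325 with fewer than 500 genes. The deepest cells also held macrophage markers at 3715 CPM, and the part of these in the Bst2 level was not tested.

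Restriction was called where the highest lineage had at least 5 times the level of the next and their intervals did not overlap. It was met by 4 members, all in neutrophils, beside 4.83% of 14096 genes restricted to any lineage and 0.447% restricted to neutrophils. Ifit1, which binds viral RNA that lacks a methylated cap, was at 306, 825, 242, 419, 1783 and 1990 CPM in the neutrophils of sets 1 to 6. Its pooled level was 1139 CPM (1054 to 1228), 9.79 times the 116 CPM of carcinoma cells, the next lineage. The lowest neutrophil set, set 3 at 242 CPM from 8 counts in 21 cells, lay close to the highest carcinoma set, at 233 CPM. Rsad2 was 7.83 times its level in macrophages, which was 290 CPM. Isg20, an exonuclease of single-stranded RNA, was at 57.4, 241, 121, 223, 471 and 480 CPM by set. Its pooled level of 327 CPM (283 to 377) was 6.46 times the 50.7 CPM of NK cells. Ifit2, another RNA-binding family member, was at 38.3, 412, 121, 212, 749 and 1016 CPM by set. Its pooled level of 529 CPM (472 to 591) was 5.72 times the 92.4 CPM of macrophages.

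The limit of 5 times was met within single sets in 3 of 6 sets for Ifit1, in 2 for Ifit2, in 2 for Rsad2 and in 1 for Isg20. Ifit1bl1 (4.52 times) and Oas2 (4.16 times) lay just under it. Isg15, Isg20, Ifit1, Oasl2, Rsad2 and Rtp4 were highest in neutrophils in each of the 6 sets. In the pool, 27 members were highest in neutrophils, against 6.19% of all genes, and for 21 of them the interval lay apart from that of the next lineage. The call depended on how deep a cell had to be. When 500 genes per cell were required, which left 122 neutrophils, 1 member (Ifit1) was restricted. When 1000 genes and less than 10% mitochondrial counts were required, which left 59, none was. Without set 6 the count was 2 (Ifit1 and Rsad2), and without set 5 it was 5, with Ifit1bl1 added.

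The neutrophil level fell with the number of genes seen in a cell. The 325 neutrophils with fewer than 500 genes held 18101 CPM of the 30 members (17567 to 18647), the 62 with 500 or more but fewer than 1000 held 14225, and the 60 with 1000 or more held 7255 (6931 to 7591). The neutrophil markers moved with them, from 83798 CPM in the shallowest through 60369 to 10220 CPM in the deepest, while macrophage markers rose from 520 to 3715 CPM. Their part in the fall of the family was not tested. Of the 30 members with at least 10 counts in the shallowest and deepest neutrophils together, 22 were higher in the shallowest, with a median ratio of 2.10. Of all genes with as many counts, 29.8% were, with a median ratio of 0.54. Macrophages or monocytes cut at the same numbers of genes held 5815, 5457 and 4435 CPM, so neutrophils stood above them in each bin.

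The myeloid lineages were neutrophils, macrophages or monocytes, dendritic cells, osteoclasts, and mast cells or basophils. A second call asked whether the highest of these had 5 or more times the level of the highest lineage outside them. It rests on that highest myeloid lineage alone. Ifit1 and Isg20 passed through neutrophils only, with carcinoma cells and NK cells as their next lineages. The call was met by 13 members, against 3.91% of all genes. These were Isg15, Isg20, Ifit1, Ifit2, Ifit1bl1, Oas1g, Oas2, Oas3, Oasl1, Oasl2, Rsad2, Ifi204 and Siglec1. The group holds 5 of the 6 measured Oas and Oasl genes. Oas1a was the other one, at 55.4 CPM in neutrophils, 44.4 in macrophages, 35.3 in osteoclasts and 11.3 in NK cells. Ifi204, of the family of cytosolic DNA sensors, was at 1453 CPM in neutrophils, 567 in macrophages and 174 in pericytes, the highest outside the myeloid lineages.

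In macrophages or monocytes 22 members reached 2-fold, against 12.9% of all genes, with a median fold of 2.37, and none was at or below 0.5, against 29.1%. Siglec1, the sialic-acid receptor CD169 of macrophages, had the highest fold, 59.6. It was a rare transcript, at 0.99, 5.15, 4.81, 29.6, 18.7 and 22.5 CPM by set, with 70 counts and 16.5 CPM (12.9 to 20.9) in the pool. In neutrophils it was at 11.8 CPM, with an interval of 4.73 to 24.2 that overlapped. All 7 neutrophil counts lay in the 60 cells with 1000 or more genes, which also held macrophage markers at 3715 CPM. The part of these in the Siglec1 level was not tested. In carcinoma cells the Siglec1 fold was 0.02. Ifi27l2a, a small hydrophobic protein linked to mitochondria, was at 400, 582, 1178, 1688, 1421 and 1472 CPM by set. Its pooled level was 1182 CPM (1150 to 1215), a fold of 20.0. Ifit1bl1 came next, at 4.95, 2.58, 14.4, 15.1, 66.8 and 16.4 CPM by set and 20.8 CPM (16.7 to 25.6) in the pool, a fold of 13.8.

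Other members high in macrophages were Oasl1 (fold 10.7) and Irf7 (7.22), the factor that amplifies interferon-alpha genes, at 219 CPM against 230 in neutrophils. Trim30a, a restrainer of inflammatory signalling, had a fold of 4.41, and Ifi204 one of 4.34. Members below 2-fold in macrophages were Ifit1, Ifit3, Ifit3b, Ifi44, Ifitm3, Xaf1, Bst2, Eif2ak2, Herc6 and Lgals3bp. Lgals3bp was highest in macrophages among lineages, at 153 CPM, but its interval overlapped that of pericytes at 142 CPM.

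Within the macrophage gate, pooled over barcode sets, the family was higher in cells without complement C1q transcripts, the genes that mark resident-type and maturing macrophages. The 348 C1q-negative cells held 6525 CPM of the 30 members, 1.58 times the 4140 CPM of the 1202 C1q-positive cells. The 2 groups were not compared within barcode sets, over which the sum in the whole gate ran from 2080 to 7178 CPM. The part of the mix of sets in this ratio was not tested. The C1q-negative level was higher, with intervals apart, for 16 of 32 members (3.95% of all genes), lower for 1 (6.79%) and overlapping for 15. Isg15 was at 1024 CPM in C1q-negative and 528 in C1q-positive cells, Ifi204 at 877 and 484, and Rsad2 at 449 and 240.5. The 1 member lower in C1q-negative cells was Lgals3bp, at 118 against 165 CPM.

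In T cells Ifi27l2a was high, while in NK cells it was low. In T cells 3 members reached 2-fold, against 15% of all genes, and 14 were at or below 0.5, against 20.5%. The 3 were Ifi27l2a (10.6), Ifit1bl1 (3.63) and Trim30a (2.09). Ifit1bl1 rests on few counts, with 0, 0, 2, 3, 0 and 4 in the T cells of sets 1 to 6. Ifi27l2a was at 907 CPM in T cells and 16.9 CPM in NK cells. It was seen in 31.3% of T cells and 0.68% of NK cells when each cell was thinned to 500 UMIs, and in 54.9% and 3.74% unthinned, at median depths of 1934 and 2934 UMIs. At 500 UMIs the share was 1.09% in mast cells or basophils, 1.38% in carcinoma cells, 6.81% in fibroblasts and 13.4% in osteoclasts, so the T-cell share stood above each of these. It stood below the 39.3% of macrophages or monocytes and the 36.7% of neutrophils. Free RNA in the droplets was not measured. Among T cells, Ifi27l2a was at 2358 CPM in the 34 cells with Foxp3, the regulatory T cell factor, at 524 CPM in the 123 with Cd8a or Cd8b1, and at 1030 CPM in the other 275. The 30-member sum, of which Ifi27l2a was 60.8%, 45.7% and 49.9%, was 3875, 1148 and 2065 CPM. Without Ifi27l2a it was 1517, 624 and 1035 CPM. In all 5 of 32 members (Isg15, Ifi44, Ifi27l2a, Stat2 and Lgals3bp) were higher in Foxp3-positive than in Cd8-positive cells with intervals apart, against 3.14% of all genes, and none was lower, against 1.6%. Some of these rest on few counts, from 85677 UMIs in Foxp3-positive and 520721 in Cd8-positive cells. Ifi44 had 7 and 2 counts, Stat2 8 and 8, and Lgals3bp 10 and 17. The T-cell groups were not compared within barcode sets.

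In NK cells 5 members reached 2-fold, against 12.8% of all genes, and 9 were at or below 0.5, against 22.5%. They were Trim30a (3.09), Oas3 (2.67), Oasl1 (2.35), Isg20 (2.28) and Herc6 (2.12), the ligase that attaches ISG15 to proteins in mice. Ifitm3 was low in both lymphocyte lineages, at 253 CPM in NK cells and 278 in T cells, against 1989 in carcinoma cells. Mast cells or basophils had no member at 2-fold, against 9.44%, and 11 at or below 0.5, against 14.5%.

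Endothelial cells were the only lineage other than the leading pair with the highest level of a member. They led for Ifi44 at 306 CPM (251 to 369), where carcinoma cells were next at 110, and for Bst2 at 1093 CPM (987 to 1207), where macrophages were next at 829. They also had the highest Eif2ak2, 67.4 CPM, but its interval overlapped that of neutrophils. In these 58 cells 10 members reached 2-fold, among them Parp14 (3.76), Rsad2 (3.53), Cmpk2 (3.25), Stat2 (3.06) and Ifi44 (2.99), against 17.2% of all genes. Osteoclasts had 8 members at 2-fold, against 11.2%, including Oasl1 (4.89), Oas1g (3.98), Ifi27l2a (3.17) and Oas1a (3.00). The osteoclast gate also held neutrophil markers at 7960 CPM, beside 48033 in neutrophils. Mmp9 is in both marker lists, so this sum includes a gene of the osteoclast gate. The part of neutrophil RNA in these folds was not tested. Dendritic cells had 7 members at 2-fold, against 14%, led by Oasl1 (7.75). Fibroblasts (11.6% of all genes at 2-fold) and pericytes (14.6%) had none. At or below 0.5-fold were 2 members in endothelial cells (9.24% of all genes), 4 in dendritic cells (15.1%), 6 in osteoclasts (23.3%), 4 in fibroblasts (15.5%) and 5 in pericytes (8.1%).

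The 10 plasmacytoid dendritic cells, the cell type known for large interferon-alpha output and for surface BST2, held 3919 CPM of the 30 members and 2809 CPM of Bst2. The 18 B or plasma cells held 1506 CPM of the 30 members.

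Carcinoma cells carried every member above a count of 0 but none at 2 times its level in other cells, where 1.2% of all genes reached it. The other cells include the 3045 that met no gate, with 25476437 UMIs, beside 4229734 in macrophages or monocytes, the largest host lineage. These ungated cells held Xist at 135 CPM, against 1335 in carcinoma cells and 18.9 in macrophages. Their 30-member sum was 1517 CPM. The part of ungated carcinoma cells in the carcinoma folds was not tested. At or below 0.5 were 8 members, against 11.9% of all genes. These were Siglec1 (0.02), Ifit1bl1 (0.06), Ifi27l2a (0.08), Oasl1 (0.22), Rsad2 (0.31), Oas3 (0.41), Irf7 (0.43) and Trim30a (0.48). The members with the highest carcinoma folds were Ifi44, Ifit3 and Ifit3b. Ifi44, whose product curbs virus replication by a mechanism still debated, was at 44.8, 43.6, 38.9, 126, 204 and 152 CPM by set. Its pooled level was 110 CPM (108 to 112), a fold of 1.29. Ifit3, the partner that steadies IFIT1 on RNA, was at 45.2, 48.0, 32.4, 87.4, 249 and 146 CPM by set, 108 CPM (106 to 110) in the pool, a fold of 1.26. Ifit3b was at 9.92, 10.7, 11.0, 22.2, 52.0 and 33.4 CPM by set, 24.4 CPM (23.4 to 25.4) in the pool, a fold of 1.21.

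Across barcode sets the members in carcinoma cells differed more than most genes. Of the 26 members at 10 CPM or more, 24 had a highest set at least 2 times the lowest, with a median ratio of 4.00. Among all genes at that level, 13.1% did, with a median ratio of 1.35. The highest set was set 5 for 22 of the 26 and set 6 for 3. Isg15 was at 112, 106, 120, 277, 555 and 350 CPM in sets 1 to 6. Sets 1 to 3 lay between 106 and 120 CPM, and sets 4 to 6 lay above them. Bst2 followed the same order of low and high sets, at 377, 384, 439, 1016, 1314 and 1166 CPM. Ifit3 had the largest ratio, 7.68. The pair under 2 times were Ifitm3, at 1547, 1394, 1721, 2083, 2544 and 2692 CPM (1.93), and Eif2ak2 (1.97). Isg20 was highest in set 3, at 31.7 CPM.

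**Figure D3:**
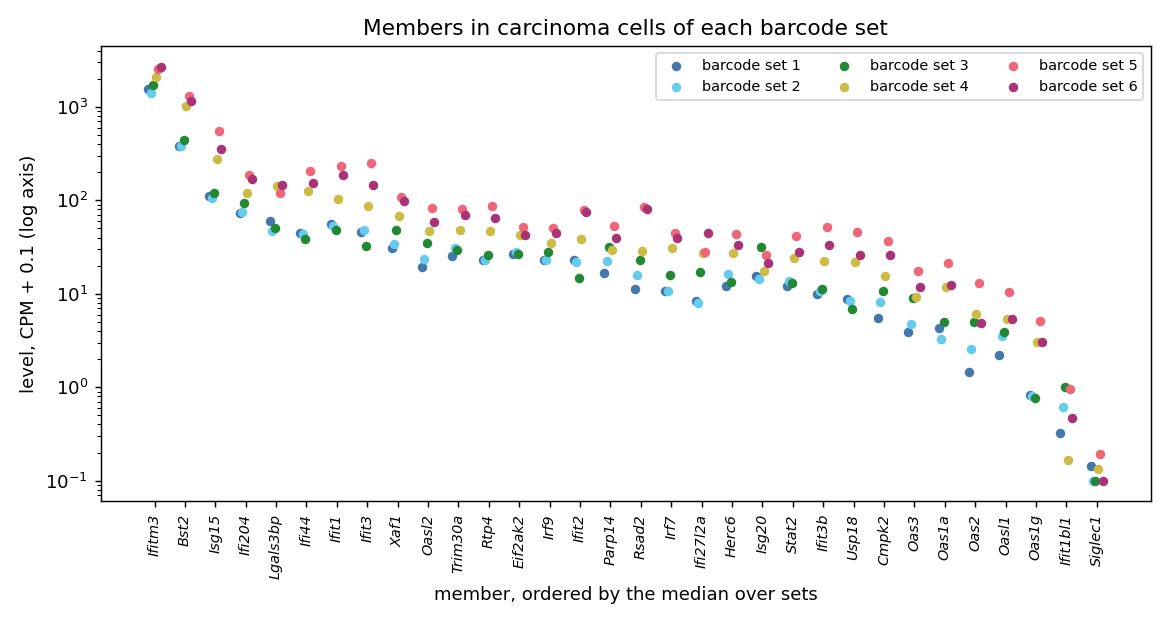
Level of the members in carcinoma cells of each barcode set, in CPM plus 0.1 on a log axis. For most members sets 5 and 6 lie above sets 1 to 3; Isg15 runs from 106 to 555 CPM and Ifitm3 from 1394 to 2692.

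The same spread in macrophages and neutrophils was read against a wider background. All 32 members had a highest set at least 2 times the lowest in macrophages or monocytes, where 53% of all genes did. In neutrophils 30 of 32 did, against 72.8%. Fewer cells per set stood behind these values, down to 21 neutrophils in set 3.

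Carcinoma cells were also split by marker scores into states, each called where its score lay at least 1.5 SD above the mean and led the others. Genes of hypoxia, keratinization, matrix, mitosis, S phase and a pair of smaller programs named for Tslp-Tac1 and Smoc2-Abcg2 were used, and 3893 cells had no leading state. The 30-member sum was highest in hypoxia cells at 1934 CPM, followed by cells of no state at 1690, matrix at 1477, mitosis at 1253, Smoc2-Abcg2 at 1200, Tslp-Tac1 at 1105, S phase at 1032 and keratin at 920. In hypoxia cells 2 of 30 members tested reached 2-fold over other carcinoma cells, Isg20 (2.96) and Rsad2 (2.18), against 4.68% of all genes. No member did in the other states, where the share of all genes was 0.435% with no leading state, 9.16% in matrix, 6.19% in keratin, 3.39% in S phase, 3.16% in Smoc2-Abcg2, 3.15% in mitosis and 1.58% in Tslp-Tac1 cells.

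The barcode sets entered these states unequally. Set 5, with the highest carcinoma level, gave 30.4% of the hypoxia cells and 6.93% of the keratin cells. Within sets, hypoxia ranked 2nd, 3rd, 2nd, 3rd, 1st and 1st of the 8 states in sets 1 to 6. S phase ranked 8th, 7th, 8th, 8th, 6th and 6th, so it was among the lowest 3 states in every set. Keratin ranked 7th, 5th, 4th, 6th, 8th and 8th. Of the cells with no state, 992 lay within 0.25 SD below the limit.

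Single carcinoma cells ranged widely. Thinned to 2000 UMIs, which 7546 carcinoma cells reached, the median cell held 1 UMI of the 30 members, 29.2% held none and the highest held 111. Cells with 10 or more were 7.81% of all, and the tenth of cells with the most held 50.2% of the family's UMIs. In macrophages or monocytes at the same depth (883 cells) the median was 7, and 38.2% held 10 or more. The share of carcinoma cells with 10 or more was 2.58%, 2.64%, 2.38%, 7.40%, 17.5% and 11.8% in sets 1 to 6. Among macrophages it was 12.5%, 16.4%, 26.8%, 47.6%, 54.7% and 58.4%. High cells were thus present in each set, in both lineages, and were most frequent in set 5 for carcinoma cells and in set 6 for macrophages.

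Members varied together from cell to cell. Pearson correlations of log counts were taken over cells thinned to 2000 UMIs, centred within barcode sets, for members seen in at least 5% of the cells. These cells share a library and a depth, so the values are descriptions. In carcinoma cells the 171 pairs of 19 members had r from 0.016 to 0.545 with a median of 0.109, and none was negative. The median was 0.129 without centring. The pairs with the highest r were Ifit1 with Ifit3 (0.545), Isg15 with Ifit3 (0.460) and Ifit1 with Ifit2 (0.452). All 19 members had r of at least 0.1 with the sum of the others, with a median of 0.258, where 1.41% of 5257 genes reached 0.1. Isg15 (0.511), Ifit3 (0.506), Ifit1 (0.494), Bst2 (0.394) and Ifi44 (0.390) led, and Irf9 (0.102) and Eif2ak2 (0.120) were lowest.

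In macrophages or monocytes the 378 pairs of 28 members had r from -0.046 to 0.492 with a median of 0.130, and 12 pairs were below 0. Ifit1 with Ifit2 (0.492) and Ifit1 with Rsad2 (0.477) led. Of the 28 members, 26 had r of at least 0.1 with the others, against 5.77% of genes. The 2 under it were again Irf9 (0.059) and Eif2ak2 (0.088), the DNA-binding part of ISGF3 and PKR. Ifi204 (0.499) and Isg15 (0.489) followed the rest most closely. The sum at this thinning was lower in deeper cells, where r with the log of the cell's full depth was -0.174 in carcinoma cells and -0.188 in macrophages.

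**Figure D4:**
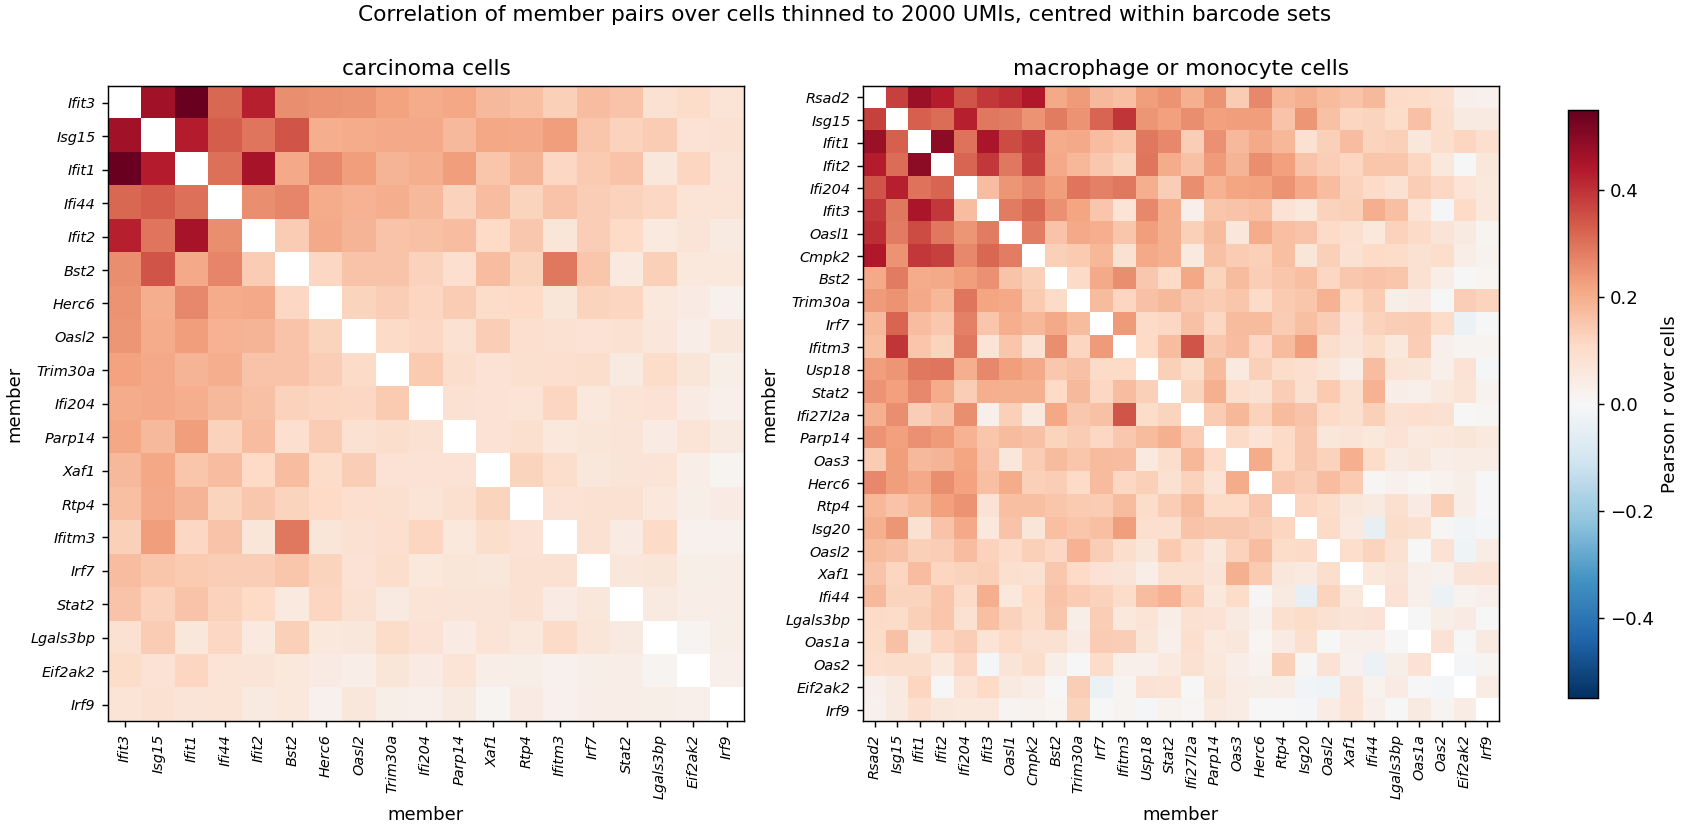
Pearson r of log counts between members over single cells thinned to 2000 UMIs and centred within barcode sets, for 19 members in carcinoma cells (left) and 28 in macrophages or monocytes (right). Ifit1, Ifit2, Ifit3 and Isg15 hold the highest r in carcinoma cells, up to 0.545, and Ifit1, Ifit2 and Rsad2 in macrophages, up to 0.492.

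Few neutrophils reached 2000 UMIs, so they were taken at 500 (401 cells, 23 members). Ifit2 with Rsad2 had the highest r, 0.509, and 21 of 23 members reached 0.1 with the others, against 9.51% of genes. Bst2 had r of 0.010 with the rest in neutrophils, beside 0.196 in carcinoma cells and 0.206 in macrophages at the same 500 UMIs. At that same depth of 500 UMIs, 9 of 12 members in macrophages or monocytes reached 0.1 (3.4% of genes), and 6 of 7 in carcinoma cells (0.483%). In 183 osteoclasts at 2000 UMIs the highest pair was Oasl1 with Rsad2, at 0.625. T cells showed the least: over 212 cells the median pair r was 0.040 and 11 of 16 members reached 0.1, against 11.9% of genes.

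The genes outside the family whose counts were most like its sum were named by r over the same cells. In carcinoma cells they were Cxcl10 (0.359), a chemokine for activated T cells, Iigp1 (0.345), Rnf213 (0.319), Mndal, Gbp2, Ifi203, Irgm1, Ifi47, Gbp7 and Igtp (0.275). In macrophages or monocytes they were Ms4a4c (0.507), Ifi211 (0.478), Ifi209 (0.444), Slfn5, Plac8, Sp100, Ifi47, Zbp1, H3f3b and Mndal (0.364). Mndal and Ifi47 stood in both lists.

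Transcripts of type I interferon itself were rare and sat in few cells. Interferon-alpha genes were near 0, with 1 count of Ifna2 and 4 of Ifnab over all cells. Ifnb1, which encodes interferon-beta, had 239 UMIs in all. Of these, 197 were in 16 carcinoma cells, 0.208% of that lineage, and 191 of the 197 in 11 cells with 5 or more each. The fullest cell held 47. The 16 cells numbered 2, 2, 0, 3, 8 and 1 in sets 1 to 6. Macrophages or monocytes held 9 UMIs in 6 cells, 1 plasmacytoid dendritic cell held 3, cells of no lineage held 29 in 7, and no other ranked lineage held any.

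The Ifnb1-positive carcinoma cells held the family at 14814 CPM over 30 members (14235 to 15410), against 1406 (1399 to 1414) in the other carcinoma cells, a ratio of 10.5. By set the levels with and without Ifnb1 were 20623 and 665 CPM in set 1 and 28986 and 678 in set 2. They were 18431 and 1438.5 in set 4, 9813 and 2580 in set 5, and 14677 and 1994 in set 6. The positive cells were thus higher in each of the 5 sets that had them. Singly, 14 of the 16 lay above 90% of the carcinoma cells of their set and 8 above 99%. All 11 with 5 or more Ifnb1 UMIs lay above 90%, while 1 cell with a single UMI lay below its set's median. None had a doublet score of 0.25 or more, and all 16 held Cxcl10.

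**Figure D5:**
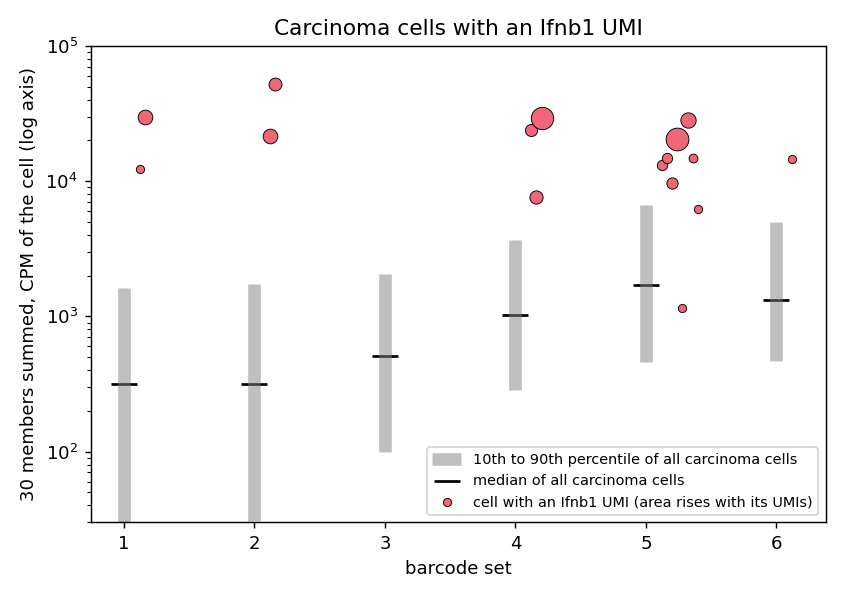
Summed level of 30 members in each of the 16 Ifnb1-positive carcinoma cells (points, CPM on a log axis), beside the median and the 10th to 90th percentile of all carcinoma cells of the same barcode set. In all, 14 points lie above the 90th percentile of their set, and set 3 has none.

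The members did not stand equally high in these cells. Rsad2 had the highest ratio to other carcinoma cells, 60.8 (2133 against 35.1 CPM), followed by Oasl1 (40.8), Ifit1 (33.8), Ifit2 (28.4), Ifit3b (20.1), Cmpk2 (19.8) and Ifit3 (15.2). Cmpk2 encodes a mitochondrial nucleotide kinase. Isg15 had a ratio of 9.73. Of the 30 members with at least 50 counts in carcinoma cells, 24 reached 2-fold, with a median of 4.27, where 10.1% of 13321 genes did, with a median of 1.00. Those with a ratio under 2 were Ifi204 (1.97), Irf9 (1.76), Ifitm3 (1.71), Lgals3bp (1.61), Eif2ak2 (1.59) and Isg20 (1.25). Rsad2, Ifit1 and Ifit2, restricted to neutrophils among the lineages, were thus at 2133, 3726 and 1160 CPM in these 16 cells, beside 2270, 1139 and 529 in neutrophils. These cells were examined after the Ifnb1 counts had been seen.

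The upstream and parallel genes of the pathway were read as lists, beside the shares of all genes at 2-fold given above: 12.6% in neutrophils, 12.9% in macrophages or monocytes, 14% in dendritic cells, 15% in T cells and 1.2% in carcinoma cells. The receptors and kinases with at least 50 counts (8 genes) had 5 at 2-fold in macrophages or monocytes and none in carcinoma cells. Ifnar2, the ligand-binding receptor chain, was at 222 CPM in macrophages, 136 in neutrophils and 69.9 in carcinoma cells. Jak1, the kinase bound to it, was at 359 CPM in NK cells, 203 in neutrophils and 83.1 in carcinoma cells. Of 10 sensors and adaptors, 6 did in neutrophils, 6 in macrophages and none in carcinoma cells. Ddx58, the RNA sensor RIG-I, was at 155 CPM in neutrophils and 53.2 in carcinoma cells, and Zbp1, a sensor of left-handed nucleic acid, at 255 and 42.3.

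Another 32 interferon-induced genes outside the members had 24 at 2-fold in neutrophils (median fold 3.58), 18 in macrophages or monocytes (2.59), 11 in T cells, 11 in dendritic cells and none in carcinoma cells. This list shares Ifih1, Ddx58, Dhx58 and Zbp1 with the sensors, and Cxcl10 and Gbp2 with the interferon-gamma targets below. The counts of these lists are therefore not separate. Cxcl10 was at 813 CPM in neutrophils, 415 in macrophages and 211 in carcinoma cells. Gbp2, a guanylate-binding protein, was at 527 CPM in neutrophils and 108 in macrophages, while Psmb8, an immunoproteasome subunit, was highest in dendritic cells at 557. Targets better known for interferon-gamma (9 genes) had 6 at 2-fold in neutrophils and 4 in macrophages. Ifng itself was at 250 CPM in NK cells and 208 in T cells. Of 8 genes that restrain the response, a list that includes the member Usp18, 5 were at 2-fold in macrophages and 3 in neutrophils. Socs1 is in this list and among the interferon-gamma targets. In neutrophils 2 of the 8 were at or below 0.5, against 31% of all genes. Socs3, a feedback inhibitor of cytokine receptors, was at 237 CPM in macrophages and 176 in neutrophils.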

How the data were processed

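The counts deposited by the authors are whole UMI counts in 1 matrix of the pooled tumors. Per the submitters' processing notes, Cell Ranger 7.1 and Seurat were used with build mm10. The series text gives Seurat 4.1.0, while Cell Ranger is 7.0.0 per the file headers. Filters on cells before deposit are not given in the sources used here. The raw counts were used as deposited, summed per lineage and scaled to CPM (Python 3.11.15, numpy 2.4.6, scipy 1.17.1, pandas 2.3.3). Barcodes were kept when they had 200 or more genes and less than 15% of counts from mitochondrial genes. A lineage needed at least 3 of its markers (2 for dendritic cells) and a set level of them. These limits were set from marker values in the data, and 14 macrophages and 9 neutrophils lay within 1.5 times of the level. Folds compare a lineage with all other cells, and the lower side was set to 3 counts where it had fewer. Doublets were scored with scrublet in scanpy 1.11.5; 296 cells at 0.25 or more stayed in, and leaving them out was an alternative. Thinning drew UMIs without replacement, and counts were log-transformed for correlations. Clusters for 1 alternative came from leidenalg 0.10.2.

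Named members were the 3 with the highest fold in the leading lineage, in macrophages and in carcinoma cells, and every restricted one; others named were chosen after their values were seen. The members and lists were chosen with earlier results of these data known. The edgeR test of treated against vehicle planned for the counts was not run, since no cell could be tied to a tumor. The steps were tested on simulated data. Promoters and motifs come from RefSeq tables.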

Additional observations from a re-analysis of the deposited data

How the results depend on the processing

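Neutrophils held the highest 30-member level under every alternative run. Their level was 9150 CPM with at least 500 genes per cell, 7334 with 1000 genes and less than 10% mitochondrial counts required, 12095 with lineages taken from clusters and 13200 without cells of high doublet score. Macrophages or monocytes were at 4430, 5265 and 4771 CPM under the last 3 of these, and carcinoma cells at 1419 and 1399 with at least 1000 genes and with clusters. Restricted members numbered 1 with at least 500 genes and 0 with at least 1000. With at least 1000 genes the neutrophil folds of Ifit3 and Ifit3b turned below 1, to 0.98 and 0.86, in 59 cells. The cause was not tested. Leaving out a barcode set gave 10818 to 14637 CPM in neutrophils, 4121 to 5472 in macrophages, 1115 to 1637 in carcinoma cells, 2 to 5 restricted members, and 27 to 27 and 20 to 22 members at 2-fold in neutrophils and macrophages. Over the member folds in neutrophils, macrophages and carcinoma cells, the lineages recomputed, 936 kept their call and direction, 15 lost and 7 gained a call, and 2 turned. The median pair r of 0.129 in carcinoma cells became 0.118 at 1000 UMIs, 0.109 centred, 0.119 by Spearman and 0.0887 at 500 UMIs, with 0.128 to 0.142 when a set was left out. That of 0.153 in macrophages became 0.108, 0.130, 0.146 and 0.0697, with 0.132 to 0.188. The 500-UMI depth, the neutrophil bins, the Ifnb1 cells and the sum without Ifi27l2a were added after seeing the data. Shallow cells limit what can be said of neutrophils. No paired analysis was possible because no cell could be tied to a labelled tumor.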

Other observations

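The barcode sets, which belong to no group here, differed in the family across lineages. The 30-member carcinoma values of 684, 699 and 787 CPM in sets 1 to 3 lay apart from 1462, 2610 and 2008 in sets 4 to 6, with a gap between 787 and 1462. Macrophages or monocytes were at 2080, 2860, 3814, 5335, 7178 and 6026 CPM, with a smaller step at the same place, between 3814 and 5335. Neutrophils were at 3502, 6700, 5138, 8708, 18486 and 18491 CPM, with the widest step between 8708 and 18486. T cells of sets 2 to 6, the sets with at least 20 such cells, were at 1121, 1235, 2898, 2452 and 1985 CPM. The values are given without an explanation, and the sets were not compared by treatment.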
